A study of Rattus norvegicus with 16 samples.

Results

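Dexamethasone and anti-*Vegf* treatment were compared directly in sutured rat corneas. The comparison covers 8 of the 16 arrays of the series, 4 from dexamethasone treated and 4 from anti-*Vegf* treated corneas, over all 14217 genes that the array reads with a probe set of 1 gene symbol. These genes are covered by 20826 of the 31042 probe sets tested. All animals were male Wistar rats of 12 to 16 weeks. In both groups 2 sutures had been placed at 1.5 mm from the limbus, and drops were given to the eye 4 times per day for 2 days, 8 drops in all, so suture injury is shared by both groups and is not a difference between them. Dexamethasone was given at 1 mg/ml. The antibody was a goat polyclonal raised against rat *Vegf*, and its labels state 20 mg/ml, whereas the study's methods give the same figure in a smaller unit. The other 8 arrays are 4 sutured corneas under a sham IgG treatment, whose labels name an anti-IgG antibody where the treatment text names goat IgG, and 4 naïve corneas without sutures. Their levels are given beside the comparison where they place a value. The methods describe the tissue as the area between the sutures and the temporal limbus without the limbal rim, and the labels as the cornea without the scleral rim. The dexamethasone arrays are called F25, F26, F27 and F30 in the labels and the anti-*Vegf* arrays F1x, F2, F6 and F7, and values are listed below in this order. Signals are log2 values made with RMA, a method that corrects background and puts all arrays on the same distribution.

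Dexamethasone is a synthetic glucocorticoid. It binds the glucocorticoid receptor, which moves to the nucleus and switches genes on through its own binding sites, among them inhibitors of inflammatory signalling, and holds back transcription driven by NF-κB and AP-1. An antibody against *Vegf* removes a ligand outside the cell that makes limbal vessels dilate, leak and sprout, and has no receptor of its own in the nucleus. The cornea is a multilayered epithelium on a stroma of collagen and keratocytes with an endothelium at the back, and a suture brings in neutrophils and macrophages from the limbal vessels within a short time.

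A difference is the dexamethasone mean minus the anti-*Vegf* mean on the log2 scale and is followed by its standard error after the ± sign, whereas levels carry the SD over 4 arrays. Limma was fitted to all 16 arrays, which share an estimate of the spread, and a gene was called at a Benjamini-Hochberg adjusted p under 0.05 over all probe sets tested. The methods describe sutures in the right eye and an array for each cornea, so the sutured corneas came from separate rats. The median signal of an array lay between 6.55 and 6.61. The number of arrays limits the precision, and a two-sided exact permutation test of 4 arrays against 4 cannot give less than p = 0.029.

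Some measured properties separated the groups as a whole. The poly-A control RNAs, which are added before labelling, had a mean signal of 5.17 ± 0.16 on the dexamethasone arrays and 6.88 ± 0.12 on the anti-*Vegf* arrays without overlap (exact permutation test, p = 0.029). The IgG mean was 7.08 and the naïve mean 5.10, so IgG arrays were near the anti-*Vegf* arrays and naïve arrays near the dexamethasone arrays. What set these levels cannot be told apart from the treatments, and no label names a labelling run. The 5′ probe set of *Gapdh* minus its 3′ probe set was −0.39 ± 0.07 under dexamethasone and −0.11 ± 0.04 under anti-*Vegf* (exact permutation test, p = 0.029), with means of −0.08 for IgG and −0.30 for naïve arrays. Leaving out anti-*Vegf* F6 had the largest effect of any single array and lowered the count of called genes from 1013 to 572, whereas 646 were left without anti-*Vegf* F7 and 660 without dexamethasone F27. Transcripts of the lens were raised on the dexamethasone arrays, most of all on F26 and F25, and those of photoreceptors most of all on F26 and F27. Without both F26 and F27, 264 genes were called, a comparison added after the values were seen that has 2 dexamethasone arrays. Corneal marker genes were bright on all 8 arrays, which does not show that RNA of other tissue was absent. *Krt12*, the keratin of the corneal epithelium, lay between 14.65 and 14.73 on the 8 arrays, *Aldh3a1*, the corneal crystallin, between 14.20 and 14.49, and *Lum*, the keratocyte proteoglycan lumican, between 13.16 and 13.55.

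Of the 14217 genes, 658 were higher under dexamethasone, which is 4.63% of the genes tested, and 355 were lower, which is 2.50%. Together this is 7.13% of all genes, the share to set beside each list count below. The median size of a called rise was 0.50 and that of a called fall −0.50, so most calls were small. At least a 2-fold change was seen for 66 of the rises and 41 of the falls, and at least a 4-fold change for 13 and 10. The 4 arrays of a group did not overlap with those of the other for 1975 genes, 13.9% of all, and for 915 of the 1013 called genes. The median difference of all genes was 0.025. Centring the arrays on 6 reference genes moved this median to 0.121 and the share of rises among the calls from 65.0% to 88.3%, with 1582 rises and 209 falls, and cyclic loess gave 589 rises and 406 falls.

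**Figure D1:**
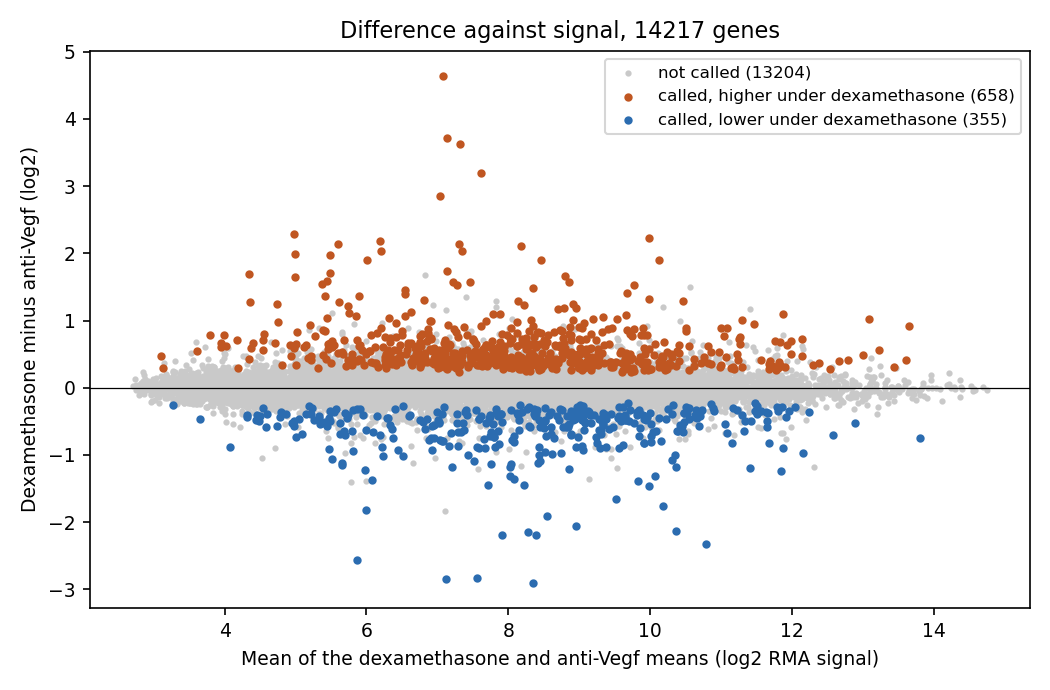
Dexamethasone minus anti-Vegf difference (log2) against the mean of the 2 group means (log2 RMA signal) for 14217 genes. Each point is a gene, orange points are the 658 called rises and blue points the 355 called falls, and the largest differences lie between −2.90 for *Defb4* and 4.64 for *Cryba1*.

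Several known targets of the glucocorticoid receptor rose under dexamethasone. Of 33 measured genes on a list of glucocorticoid responses 10 rose and 1 fell, a share of 33.3%, with a median difference of 0.32. Of 13 genes for the receptor and its chaperones 1 rose and 0 fell, a share of 7.7%, near the 7.13% called of all genes. The receptor gene *Nr3c1* had a mean of 8.77 under dexamethasone and 8.78 under anti-*Vegf*, with a difference of −0.01 ± 0.12 (adjusted p = 0.97), against 9.49 in naïve corneas. The brightest chaperone, *Hsp90ab1*, differed by −0.09 ± 0.08 (adjusted p = 0.52) and *Fkbp4*, the co-chaperone that carries the receptor inward, by 0.26 ± 0.14 (adjusted p = 0.31).

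*Fkbp5* encodes a co-chaperone that restrains the receptor and is among its best known targets. Its signals were 10.46, 8.37, 9.71 and 8.41 on the dexamethasone arrays and 7.49, 7.07, 6.83 and 7.09 on the anti-*Vegf* arrays. F25 and F27 were the high arrays, and the lowest dexamethasone array lay above the highest anti-*Vegf* array. The dexamethasone mean of 9.24 was close to the naïve mean of 9.27, whereas the IgG mean was 7.56, and the dexamethasone and naïve arrays overlapped. *Lims2*, an adaptor protein of focal adhesions, was also highest on F25 and F27, at 8.59, 6.55, 7.70 and 6.29 against 5.18, 4.87, 5.12 and 5.22, and rose by 2.19 ± 0.34 (adjusted p = 0.0020). The IgG and naïve arrays of *Lims2* lay at 5.11 to 5.65, below every dexamethasone array.

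*Tsc22d3*, which encodes GILZ, a leucine zipper protein that binds NF-κB and AP-1, was measured at 11.50, 10.86, 11.55 and 10.47 under dexamethasone and at 9.03, 9.20, 8.36 and 8.87 under anti-*Vegf*. *Crispld2*, a secreted protein that binds endotoxin, had 8.09, 8.44, 9.24 and 7.69 against 6.32, 6.46, 6.19 and 6.36, a rise of 2.04 ± 0.25 (adjusted p = 0.00037). *Klf9*, a transcription factor, had 10.62, 10.64, 10.86 and 10.46 against 9.03, 9.41, 9.49 and 9.37. These dexamethasone arrays were also above all naïve and all IgG arrays for the 3 genes. *Klf15*, a factor that acts together with the receptor, rose by 1.07 ± 0.22 (adjusted p = 0.0097), although its second, dim probe set went the other way by −0.76 (adjusted p = 0.043). *Tfcp2l1*, an epithelial transcription factor, rose by 1.11 ± 0.21 (adjusted p = 0.0062).

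Other targets rose by less. *Sgk1*, a kinase that regulates ion channels, was at 11.60, 11.45, 12.08 and 11.44 under dexamethasone and at most at 11.04 under anti-*Vegf*. *Cdkn1a* and *Cdkn1c*, inhibitors of the cell cycle, rose by 0.50 ± 0.11 and 0.91 ± 0.21, and *Dusp1*, the phosphatase that switches off MAP kinases, by 1.01 ± 0.24 (adjusted p = 0.013, 0.018 and 0.018). A second probe set of *Cdkn1a* had the opposite sign without a call, at −0.44 (adjusted p = 0.52). The call of *Cdkn1a* was lost with the mean of probe sets. The call of *Cdkn1c* ended without anti-*Vegf* F6, at a difference of 0.74, and that of *Dusp1* without each of F6, F7, F26 and F27, at 0.86 to 0.95. *Gadd45a*, a DNA damage and stress gene, was the list's only fall, at 9.58, 10.06, 9.74 and 9.65 against 10.37, 10.36, 10.39 and 10.47. *Per1*, a clock gene with receptor sites, did not overlap between the groups but missed the threshold, with a difference of 0.57 ± 0.17 (adjusted p = 0.055). *Anxa1*, annexin A1, which is often described as a mediator of glucocorticoids, was among the brightest genes of the array and differed by −0.02 ± 0.06 (adjusted p = 0.89). Without F26 and F27 the list had 7 calls. *Cyp2b21*, a cytochrome of the steroid and drug inducible family, rose by 1.99 ± 0.46 (adjusted p = 0.018), with F30 at 4.67 and the other dexamethasone arrays between 6.20 and 6.58, and its call ended without F26 or F27, at 1.79 to 1.82. IgG F23 reached 6.15.

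**Figure D2:**
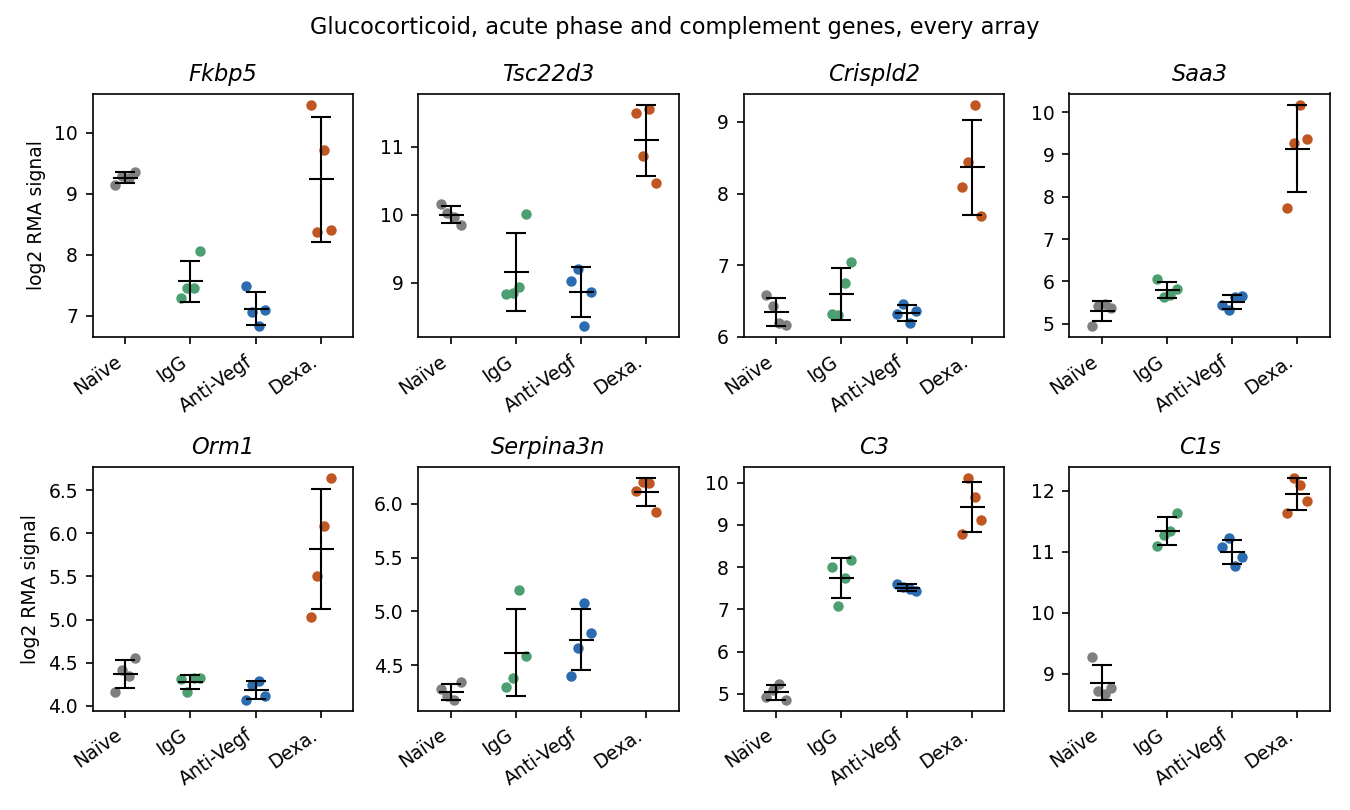
Log2 RMA signal on every array for 8 genes, by group, with points for arrays and bars for the mean ± SD (n = 4). For *C3* the 4 dexamethasone arrays sit between 8.78 and 10.11, above the anti-Vegf arrays at 7.43 to 7.61 and the naïve arrays at 4.86 to 5.24, while for *Fkbp5* they overlap with the naïve arrays.

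Acute phase proteins are secreted in quantity during inflammation, and glucocorticoids and interleukin 6 induce them together in liver. Of 17 measured members 6 rose and 0 fell, with a median of 0.38. *Saa3*, a local serum amyloid A, had signals of 7.73, 9.27, 10.18 and 9.37 under dexamethasone and 5.45, 5.32, 5.62 and 5.66 under anti-*Vegf*. IgG and naïve corneas lay at 4.94 to 6.05, so a signal above this range was seen under dexamethasone alone among these groups. *Orm1*, an acid glycoprotein that binds drugs, had 5.03, 5.51, 6.09 and 6.64 against 4.07, 4.24, 4.29 and 4.11, again with the other groups at or below 4.55. *Serpina3n*, an inhibitor of neutrophil and mast cell proteases, had 6.12, 6.20, 6.19 and 5.92 against 4.40, 4.66, 5.08 and 4.80, and its dexamethasone arrays were nearly level. *A2m*, a wide protease inhibitor, was already among the brightest genes and rose by 0.92 ± 0.15 (adjusted p = 0.0025). *Cp*, which oxidises iron, and *Hp*, which binds free haemoglobin, rose by 1.01 ± 0.21 and 0.78 ± 0.17 (adjusted p = 0.011 and 0.012), *Hp* with overlapping arrays. Without F26 and F27 the list had 4 called members.

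Of 26 genes for metal and peroxide handling 5 rose and 0 fell, at a median of 0.19. *Mt2A*, a metallothionein that stores zinc, was at 13.43, 13.79, 13.64 and 13.57 under dexamethasone and at 12.55 to 12.63 under anti-*Vegf*, both far above the naïve arrays at 9.74 to 10.21. *Mt1* differed by 0.42 ± 0.19 (adjusted p = 0.22). *Gpx3*, the secreted glutathione peroxidase, had 9.60, 8.98, 9.10 and 8.68 against 7.59, 7.60, 7.54 and 7.69, with F25 highest. *Tfrc*, the receptor that imports transferrin, rose by 1.02 ± 0.18 and *Steap3*, which reduces the iron inside the endosome, by 0.88 ± 0.16 (adjusted p = 0.0040 and 0.0053). *Sod3*, the extracellular superoxide dismutase, rose by 0.63 ± 0.15 (adjusted p = 0.022), a call that ended without anti-*Vegf* F6 or dexamethasone F25, at 0.52 to 0.55. The brightest member, *Aldh3a1*, differed by 0.12 ± 0.07 (adjusted p = 0.33).

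A few promoters are shown because their genes are among the large rises and hold a motif of the glucocorticoid receptor or of C/EBP factors. The sequences are from RefSeq, build GRCr8, which was matched by symbol for 11733 of the 14217 genes, and each is the 250 bases before the annotated start, written 5′ to 3′ on the strand of the gene. Motifs were searched on both strands of windows that also hold the 50 bases after the start. The loose glucocorticoid receptor motif, read as GNACA, any 3 bases and TGTNC, is in 0.439% of all 33469 windows, in 5 of 591 windows of called rises and in 3 of 321 windows of called falls. It is in capitals for *Orm1* and *Serpina3n*, where it begins 130 and 78 bases before the start, and in *Orm1* it overlaps with a C/EBP motif.
Orm1, chr5:81788259-81788508, plus strand: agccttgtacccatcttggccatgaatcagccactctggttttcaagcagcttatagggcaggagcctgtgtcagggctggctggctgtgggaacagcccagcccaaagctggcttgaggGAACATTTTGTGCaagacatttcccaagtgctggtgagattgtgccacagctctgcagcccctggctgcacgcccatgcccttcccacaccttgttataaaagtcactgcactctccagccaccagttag
Serpina3n, chr6:129088142-129088391, plus strand: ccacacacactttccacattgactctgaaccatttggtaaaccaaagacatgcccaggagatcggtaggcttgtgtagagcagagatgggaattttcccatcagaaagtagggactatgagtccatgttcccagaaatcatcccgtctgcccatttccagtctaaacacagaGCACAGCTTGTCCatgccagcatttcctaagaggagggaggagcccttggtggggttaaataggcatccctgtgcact
The C/EBP motif TTGCNNAA, for a family of factors of the acute phase, is in 10.6% of all windows, in 9.31% of those of called rises and in 9.03% of those of called falls. It is in capitals for *Saa3* and *C3*, where it begins 75 and 104 bases before the start.
Saa3, chr1:106358431-106358680, minus strand: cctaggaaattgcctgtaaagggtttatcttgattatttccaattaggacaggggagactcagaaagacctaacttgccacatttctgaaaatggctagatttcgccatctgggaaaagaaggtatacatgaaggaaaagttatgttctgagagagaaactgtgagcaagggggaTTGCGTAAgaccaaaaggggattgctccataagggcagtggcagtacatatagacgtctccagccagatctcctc
C3, chr9:2201340-2201589, minus strand: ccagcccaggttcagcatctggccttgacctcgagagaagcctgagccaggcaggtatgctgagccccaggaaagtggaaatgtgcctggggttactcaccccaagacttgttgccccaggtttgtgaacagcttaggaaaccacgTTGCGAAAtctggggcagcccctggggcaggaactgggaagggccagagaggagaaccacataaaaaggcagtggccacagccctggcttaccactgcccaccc
These are matches of letters in short windows, and no binding was measured.

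*C3* and the classical pathway genes *C1s* and *C1r* were higher under dexamethasone than under anti-*Vegf*. Complement is a cascade of plasma proteases that opsonises surfaces and calls in leukocytes, and *C3* is the protein on which its pathways meet. Of 19 measured components 4 rose and 0 fell, and the median was −0.00. *C3* had 8.78, 10.11, 9.67 and 9.11 under dexamethasone, with F26 highest, and 7.61, 7.53, 7.49 and 7.43 under anti-*Vegf*, a rise of 1.90 ± 0.24 (adjusted p = 0.00053). *C1s* and *C1r* encode the proteases of the first component. *C1s* had 11.64, 12.21, 12.10 and 11.83 against 11.08, 11.23, 10.76 and 10.92, and *C1r* rose by 0.62 ± 0.12 (adjusted p = 0.0062), both without overlap and both with naïve arrays at 9.27 or lower. The recognition subunits *C1qa*, *C1qb* and *C1qc*, which macrophages make, were not called, with differences of −0.49 ± 0.23, −0.28 ± 0.23 and −0.47 ± 0.26. *Masp1*, a protease of the lectin pathway, rose by 0.71 ± 0.20 (adjusted p = 0.045), but it was called in the absence of few single arrays. Its call ended without any of anti-*Vegf* F1x, F6 and F7, dexamethasone F25, F26 and F30, IgG F19 and F23 and each naïve array, at differences of 0.53 to 0.75. Of the others, *C6* of the terminal complex differed by −0.74 ± 0.32 and the ficolin *Fcnb* by 0.43 ± 0.16 (adjusted p = 0.19 and 0.12). The study also reports *C2*, *C1qbp* and *C1qtnf7* as higher under dexamethasone than under anti-*Vegf*, and no values for these genes are given here.

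Of 16 complement regulators and receptors 1 rose and 1 fell. *Serping1*, which encodes the inhibitor of *C1r* and *C1s*, rose with them at 11.14, 11.91, 11.67 and 11.75 against 11.05, 11.09, 10.52 and 10.90. *Cfi*, the protease that cuts up active *C3*, fell, at 7.27, 6.59, 6.90 and 7.11 against 7.43, 8.39, 8.45 and 7.99, which is −1.10 ± 0.27 (adjusted p = 0.024). For both genes the groups did not overlap, but F25 lay close to the nearest anti-*Vegf* array. *Serping1* was not called without F6, F26, F27 or F30, at 0.60 to 0.71, and *Cfi* was not called without F2, F6, F26 or F27, at −1.07 to −0.97, and 0 regulators were called without F6, F26 or F27. The receptors for the complement peptides were not called, with differences of −0.29 ± 0.12 for *C3ar1* and 0.36 ± 0.16 for *C5ar1*, nor was the bright membrane inhibitor *Cd59b* at −0.04 ± 0.10 (adjusted p = 0.86). Without F26 and F27, 1 component and 0 regulators were called.

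Chemokines draw leukocytes into tissue. Of 31 measured ligands 0 rose and 1 fell, at a median of −0.10. The share called was 3.2%, against 7.13% of all genes. *Cxcl6*, a chemokine that attracts neutrophils, had 5.71, 6.10, 8.19 and 7.97 under dexamethasone and 8.47, 8.57, 8.61 and 8.10 under anti-*Vegf*. It is probably the gene that the study names *Cxcl5*. Its means of 8.44 under anti-*Vegf* and 8.84 under IgG lie above the naïve mean of 4.57 by nearly the fold changes printed there for *Cxcl5*. Only F25 and F26 were low, F27 lay above the lowest anti-*Vegf* array, and the naïve arrays were at 4.31 to 4.89. The fall of −1.44 ± 0.42 (adjusted p = 0.048) was called without F27 or without F30, and without any of the other 14 arrays it was not, at −1.56 to −1.02. The ordinary t test, trend and robust moderation and the 8 compared arrays alone did not call *Cxcl6* either. *Ccl2*, which attracts monocytes, had 10.28, 10.84, 11.02 and 10.77 against 11.63, 11.54, 11.40 and 11.03. Its arrays just did not overlap, and its difference of −0.67 ± 0.29 was not called (adjusted p = 0.19). Both groups were far above the naïve arrays at 4.38 to 5.10. The brightest ligand, *Ccl6*, was 0.61 ± 0.29 higher without passing the test (adjusted p = 0.23). Of 16 receptors 1 rose and 2 fell, a share of 18.8%. *Cxcr4* and *Ccr6* fell by 0.75 ± 0.19 and 0.45 ± 0.11, and *Ackr3*, the scavenger receptor for the ligand of *Cxcr4*, rose by 0.72 ± 0.20 (adjusted p = 0.025, 0.021 and 0.038). *Cxcr4* was lost without F1x, F2, F6, F25 or F27 (−0.76 to −0.62), *Ccr6* without F2, F6, F25 or F27 (−0.40 to −0.39) and *Ackr3* without F2, F6, F7 or any dexamethasone array (0.63 to 0.75), so 0 receptors were called without F2, F6, F25 or F27.

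Among 47 interleukins, TNF family members and receptors 3 rose and 1 fell, with a median of −0.00. The share called was 8.5%, near the 7.13% of all genes. *Cntf*, a cytokine that supports nerve and glial cells, was 7.17, 7.05, 7.42 and 7.28 under dexamethasone and 7.97, 7.69, 8.45 and 8.37 under anti-*Vegf*, a fall of 0.89 ± 0.15 (adjusted p = 0.0025). Its IgG arrays lay at 7.33 to 7.67, between the groups or within the dexamethasone range, so the anti-*Vegf* arrays were the high ones. *Socs2*, an inhibitor of cytokine signalling, rose by 0.60 ± 0.12, *Tnfsf12*, which encodes TWEAK, by 0.58 ± 0.13 and *Il22ra2*, a decoy receptor of interleukin 22, by 0.71 ± 0.18 (adjusted p = 0.0086, 0.018 and 0.030). *Tnfsf12* was not called without F6 (0.47), nor *Il22ra2* without F1x, F6, F7, F25, F26 or F27 (0.60 to 0.72), and the list had 2 calls without F6. The bright *Il18* differed by −0.16 ± 0.11 (adjusted p = 0.43).

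NF-κB is the factor that turns on many of these cytokines, and inhibitors of it rose. *Nfkbia*, the inhibitor that holds NF-κB in the cytoplasm, was 11.34, 11.56, 11.29 and 11.52 against 10.95, 10.72, 10.69 and 10.27. *Tnfaip3*, which encodes the ubiquitin editing enzyme A20, had 8.57, 9.07, 8.97 and 8.81 against 8.56, 8.11, 7.94 and 7.97, with F25 just above anti-*Vegf* F1x. *Tnip1*, the partner of A20, rose by 0.38 ± 0.09, while *Nfkb1*, a subunit of the factor, fell by 0.30 ± 0.08 (adjusted p = 0.022 and 0.039). Both of these calls ended without F6 or F25, at 0.31 to 0.37 and −0.32 to −0.25, as did that of *Tnip1* without F2 or F26 and that of *Nfkb1* without F1x, F7, F27 or F30. In all 3 of 26 list members rose and 1 fell, with a median of 0.06, and 2 were called without F6 or without F25. The bright target *Sod2* differed by 0.43 ± 0.20 (adjusted p = 0.21).

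The NF-κB motif, read as GGG, any 2 bases and TTTCC, is in 1.53% of all windows, in 13 of 591 windows of called rises and in 14 of 321 of called falls. The promoters of the inhibitor *Nfkbia*, which rose, and of the chemokine *Cxcl6*, which fell, are shown because both hold it, in capitals, beginning 31 and 88 bases before the start.
Nfkbia, chr6:78597073-78597322, minus strand: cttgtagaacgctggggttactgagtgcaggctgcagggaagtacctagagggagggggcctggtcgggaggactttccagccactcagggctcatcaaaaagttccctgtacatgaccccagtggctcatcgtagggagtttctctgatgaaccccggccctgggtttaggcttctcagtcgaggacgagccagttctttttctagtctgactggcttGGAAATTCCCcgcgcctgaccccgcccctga
Cxcl6, chr14:17596418-17596667, minus strand: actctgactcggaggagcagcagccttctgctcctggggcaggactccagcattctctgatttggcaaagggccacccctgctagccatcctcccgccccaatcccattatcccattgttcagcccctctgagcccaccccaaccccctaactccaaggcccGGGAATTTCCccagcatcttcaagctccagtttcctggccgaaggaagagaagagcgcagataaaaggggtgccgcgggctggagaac
A match in these windows went with a rise in the first gene and with a fall in the other.

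Called interferon response genes were lower under dexamethasone. Of 29 measured members 0 rose and 4 fell, and the median of −0.38 was the third lowest of the process lists. *Rsad2*, which encodes the antiviral protein viperin, had 9.53, 9.20, 8.80 and 9.69 under dexamethasone and 11.57, 11.82, 11.20 and 11.15 under anti-*Vegf*. The naïve arrays at 10.92 to 11.40 and the IgG arrays at 10.70 to 11.94 were both on the anti-*Vegf* side, so the dexamethasone arrays stood apart from uninjured tissue too. *Irf1*, a transcription factor of the interferon response, was 10.87, 10.68, 10.44 and 10.95 against 11.33, 11.35, 11.36 and 11.63. *Ifit2*, which blocks viral RNA, fell by 0.83 ± 0.24 and *Ifih1*, a sensor of viral RNA, by 0.28 ± 0.08 (adjusted p = 0.049 and 0.036). *Ifit2* was lost without F1x, F2, F7, F25, F27, F30, IgG F17 or F23 or naïve 1, 2 or 4 (−0.89 to −0.66) and *Ifih1* without any anti-*Vegf* array or F26, F27 or F30 (−0.30 to −0.23). The list held 2 calls without F1x, F2, F7 or F27 and 7 without naïve 3, and centring on reference genes left 2. The receptor gene *Ifngr1* was bright and differed by −0.02 ± 0.14 (adjusted p = 0.97). Antigen presentation by MHC class II gave 1 rise in 12 genes, a share of 8.3%, near the 7.13% called of all genes. The rise was that of the protease *Ctss*, at 9.09, 9.09, 9.09 and 9.10 against 8.42 to 8.57, while *Cd74*, the chain that *Ctss* cuts, differed by −0.23 ± 0.20 (adjusted p = 0.56). The class I like gene *RT1-T24-4* fell by 2.20 ± 0.62 (adjusted p = 0.045), with arrays of 8.10, 10.10, 9.84 and 8.02 under anti-*Vegf*. Its call ended without F2, F6, any dexamethasone array, IgG F23 or any naïve array, at −2.38 to −1.84.

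Few markers of infiltrating cells passed the test. None of 13 pan-leukocyte, 8 neutrophil and 17 T and NK cell markers was called, while 1 neutrophil marker was called without F26 and 1 T or NK cell marker without F30 or IgG F23. The mean signal of the neutrophil markers was 6.96 to 8.33 on the dexamethasone arrays and 7.72 to 7.96 on the anti-*Vegf* arrays, a wider range under dexamethasone. *Ptprc*, the CD45 gene of all leukocytes, had 6.62, 8.37, 8.02 and 7.50 against 7.70, 8.40, 7.97 and 7.68, and *S100a8*, an abundant neutrophil protein, 9.30, 12.37, 10.66 and 10.99 against 11.81, 11.35, 11.60 and 11.39. F25 was lowest for both. In bulk tissue, fewer cells of a type and less RNA per cell cannot be told apart. Of 15 monocyte and macrophage markers 1 fell and 1 rose. *Cd68*, a lysosomal protein of macrophages, had 9.36, 9.87, 9.41 and 9.78 against 10.52, 10.39, 10.32 and 10.42. *Lyz2*, lysozyme, rose by 0.69 ± 0.19 (adjusted p = 0.045), a call that ended without any of anti-*Vegf* F1x, F2, F6 and F7, dexamethasone F26, F27 and F30, IgG F19 and naïve 2 and 4, at 0.49 to 0.75.

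Antimicrobial genes held 2 of the 3 largest falls of the comparison. *Reg3g*, a lectin that kills Gram-positive bacteria and is made by injured epithelium, was 4.74, 5.50, 6.21 and 6.35 under dexamethasone and 8.03, 8.61, 8.34 and 9.19 under anti-*Vegf*, while naïve corneas had 4.16 to 4.64 and IgG corneas 7.09 to 9.40. *Defb4*, an inducible beta-defensin, had 5.95, 7.17, 6.28 and 8.21 against 9.85, 9.77, 10.35 and 9.23. The anti-*Vegf* arrays of *Defb4* were above 3 of the 4 IgG arrays, which were at 7.29 to 7.98, and IgG F17 lay at 9.71. *Defb1*, the constitutive defensin, fell by 0.66 ± 0.19 (adjusted p = 0.042), lost without F1x, F2, F7, F25, F27, F30 or IgG F19 at −0.70 to −0.57. The bright *Slpi*, an antiprotease with antibacterial activity, was 0.29 ± 0.26 higher (adjusted p = 0.57). Of 16 members 3 fell and 1, *Lyz2*, rose, at a median of −0.05. Only 2 were left without F1x, F2, F7, F27, F30 or IgG F19.

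**Figure D3:**
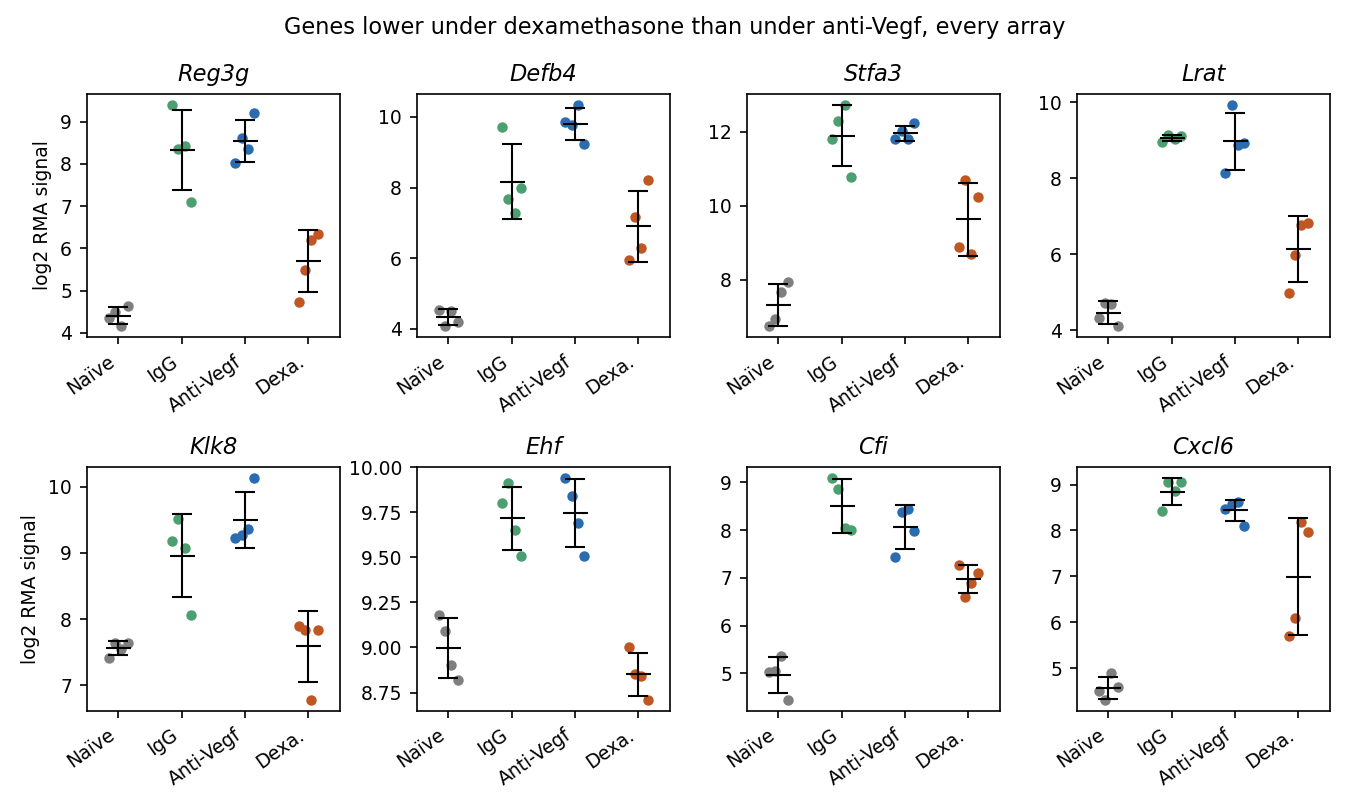
Log2 RMA signal on every array for 8 genes that were lower under dexamethasone, by group, with points for arrays and bars for the mean ± SD (n = 4). *Reg3g* lies between 4.74 and 6.35 under dexamethasone and between 8.03 and 9.19 under anti-Vegf, while for *Cxcl6* 2 dexamethasone arrays lie near 6 and 2 near 8.

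Called genes of the cornified envelope were lower under dexamethasone. When epithelium is injured it makes proteins of the cornified envelope, the cross-linked shell of skin, together with the kallikrein proteases that shed it. Of 22 measured envelope genes and suprabasal keratins 0 rose and 8 fell, at a median of −0.56. *Stfa3*, a stefin that inhibits cysteine proteases, had 8.88, 10.69, 8.71 and 10.24 against 11.79, 12.01, 11.80 and 12.22. *Dmkn*, dermokine, had 9.10, 10.10, 8.97 and 9.01 against 10.90, 11.05, 11.22 and 11.06, with the naïve arrays at 7.30 to 8.24. *Sbsn*, suprabasin, and *Sprr1a*, an envelope precursor and a very bright gene, fell by 1.24 ± 0.19 and 0.74 ± 0.11 (adjusted p = 0.0014 for each). *Sprr3*, a second precursor, had 7.41, 8.02, 6.05 and 7.68 against 9.38, 9.70, 9.78 and 9.10, and was below or within the naïve range of 7.34 to 8.70. *Cnfn*, cornifelin, fell by 1.46 ± 0.31 (adjusted p = 0.012) and *Serpinb2*, a protease inhibitor of stressed epithelium that is near 3 in naïve corneas, by 1.00 ± 0.24 (adjusted p = 0.020), which was lost without F1x, F6 or F7 at −0.98 to −0.90. The brightest gene, *Sfn*, differed by −0.12 ± 0.13 (adjusted p = 0.62).

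Kallikreins and shedding proteases had the highest share of calls of any process list, with 6 of 10 lower, 0 higher and a median of −0.72. The 6 calls were made without each single array and in the fit of the 8 compared arrays, and 3 were left without F26 and F27. *Klk8* had 7.89, 7.84, 6.78 and 7.84 against 9.23, 9.27, 9.36 and 10.13, with 3 dexamethasone arrays slightly above the naïve range of 7.41 to 7.64 and F27 below it. *Klk10* and *Klk6* fell by 1.15 ± 0.23 and 1.06 ± 0.22 (adjusted p = 0.0086 and 0.011), and *Klk6* was nearly flat over the dexamethasone arrays at 4.91 to 5.06. *Prss8* and *Tmprss11d*, proteases of the cell surface, fell by 0.80 ± 0.18 and 0.72 ± 0.12 (adjusted p = 0.016 and 0.0024), as did *Spink5*, the inhibitor of kallikreins, by 0.71 ± 0.12 (adjusted p = 0.0028). The bright cathepsin *Ctsl* differed by −0.19 ± 0.07 (adjusted p = 0.099), although a second bright probe set of it was called lower at −0.43 (adjusted p = 0.0060).

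**Figure D4:**
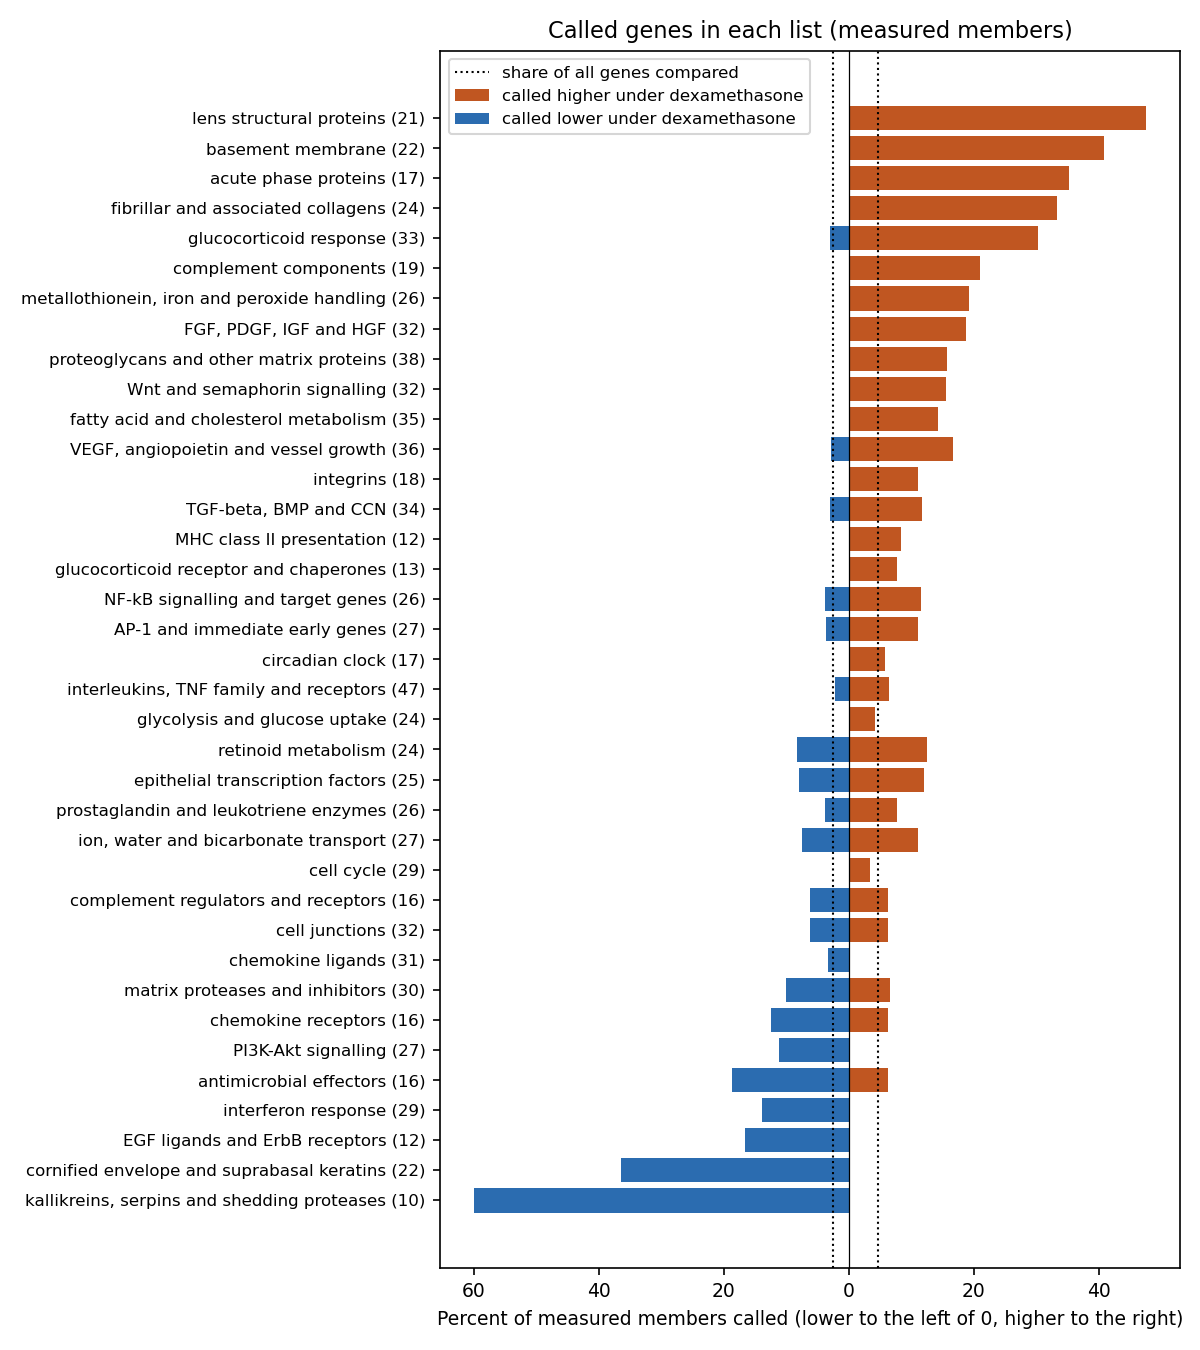
Share of the measured members of each process list that was called higher (orange, right of 0) or lower (blue, left of 0) under dexamethasone, in percent, with the number measured in brackets and dotted lines at the shares of all genes, 4.63% and 2.50%. The bars run from kallikreins, with 6 of 10 lower, to lens proteins, with 10 of 21 higher.

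Further epithelial genes were among the 15 largest falls. *Krt23*, a keratin, had 9.48, 8.80, 8.74 and 7.75 against 9.66, 10.34, 10.61 and 10.76. *Sdcbp2*, a scaffold protein, had 8.03, 7.57, 7.74 and 8.39 against 9.58, 9.91, 9.93 and 10.52, and 3 of its dexamethasone arrays lay below the lowest naïve array at 8.34. *C18h5orf46*, which encodes a small secreted peptide, had 4.38 to 5.57 against 6.08 to 7.39, with F27 lowest. *Syt16*, a synaptotagmin, had 3.54, 6.15, 3.40 and 5.25 against 6.27, 7.73, 7.19 and 7.41, and the gene fell by 2.56 ± 0.69 (adjusted p = 0.036). The call was lost without F2, F6, F7, F25 or F27, at −2.55 to −2.17.

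Of 25 epithelial transcription factors 3 rose and 2 fell. *Ehf*, an ETS factor of stratified epithelium, had 9.0 on F25 and 8.85, 8.84 and 8.71 on the others against 9.94, 9.84, 9.69 and 9.51, and the naïve arrays, at 8.82 to 9.18, overlapped with the dexamethasone arrays. *Elf5*, of the same family, fell by 0.74 ± 0.17 (adjusted p = 0.016). *Pou3f3* had 9.54, 9.54, 9.52 and 9.33 against 8.82, 8.97, 8.17 and 8.39. *Tfap2b*, a factor of the neural crest that marks corneal endothelium and keratocytes, rose by 0.68 ± 0.18 and *Klf6* by 0.39 ± 0.11 (adjusted p = 0.031 and 0.041). *Tfap2b* was lost without F6, F7, F26 or F27 (0.56 to 0.65) and *Klf6* without any anti-*Vegf* array, without F26, F27 or F30 or without IgG F19 or F22 (0.31 to 0.43), so that 3 of the 5 were called without F6, F7, F26 or F27. The bright *Hopx* differed by 0.06 ± 0.07 (adjusted p = 0.65).

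Junction genes were split. Of 32 measured members 2 rose and 2 fell, at a median of −0.00. *Cldn1*, the claudin that seals epithelial tight junctions, fell by 0.56 ± 0.15, and *Dsg1*, a desmosomal cadherin, by 0.43 ± 0.11 (adjusted p = 0.036 and 0.030), with further probe sets of both called in the same direction. *Cdh2*, N-cadherin, which joins corneal endothelial cells, was 8.36, 8.31, 8.52 and 8.52 against 7.26, 8.14, 6.85 and 7.09, a rise of 1.09 ± 0.30 (adjusted p = 0.040), but a dim probe set of *Cdh2* was lower by −0.49 (adjusted p = 0.021). *Jam3*, an adhesion molecule of tight junctions, rose by 0.70 ± 0.16 (adjusted p = 0.016) and was called without each array. The calls of *Cldn1* (−0.57 to −0.46 without F2, F6, F7, F25, F26 or F30), *Dsg1* (−0.44 to −0.34 without any anti-*Vegf* array, F26 or F30) and *Cdh2* (0.93 to 1.13 without F1x, F6, F7 or any dexamethasone array) were lost, which left 1 or 2 calls without F1x, F2, F6, F7, F25, F26 or F30. *Dsp*, desmoplakin and the brightest member, differed by 0.02 ± 0.08 (adjusted p = 0.93).

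Retinoid genes were called in both directions. Retinoic acid is made from retinol and keeps the ocular surface moist and unkeratinised. *Lrat*, the enzyme that stores retinol as an ester, had 4.99, 5.99, 6.77 and 6.82 under dexamethasone and 8.13, 9.94, 8.87 and 8.94 under anti-*Vegf*, with IgG arrays at 8.95 to 9.13 and naïve arrays at 4.11 to 4.72. *Rdh10*, which starts the oxidation of retinol, fell by 0.49 ± 0.10 (adjusted p = 0.0074). *Stra6*, the receptor that brings retinol into cells, rose by 0.80 ± 0.17, *Aldh1a1*, which completes retinoic acid and is the brightest member, by 0.69 ± 0.15 and *Rarb*, a retinoic acid receptor that is itself a target, by 0.83 ± 0.19 (adjusted p = 0.012, 0.014 and 0.016). The dexamethasone arrays of *Aldh1a1* lay at 12.26 to 12.51 and those of *Rarb* at 7.60 to 7.76, all above the anti-*Vegf* arrays. Of 24 members 3 rose and 2 fell, the median was −0.00, and 2 were called without F26 and F27.

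All called genes of the collagen, basement membrane and proteoglycan lists were higher under dexamethasone, although most members were not called. Of 24 fibrillar and associated collagens 8 rose and 0 fell, at a median of 0.35, and of 22 basement membrane genes 9 rose and 0 fell, at a median of 0.41. Together with 6 rises and 0 falls among 38 proteoglycans and other matrix proteins this makes 23 called genes. *Col6a1* and *Col6a2* encode chains of the beaded filaments that surround keratocytes. *Col6a1* had 11.07, 11.34, 10.89 and 11.17 against 10.49, 9.84, 9.29 and 9.68, and *Col6a2* had 10.51, 10.52, 9.84 and 10.69 against 9.70, 8.78, 8.34 and 9.07. Their IgG arrays lay at 10.40 to 10.74 and 9.67 to 9.91, between the anti-*Vegf* and the dexamethasone means. *Col11a1* and *Col5a1*, which set fibril width, and *Col8a2*, of the endothelial basement membrane, rose by 0.91 ± 0.21, 0.83 ± 0.21 and 0.88 ± 0.22 (adjusted p = 0.017, 0.029 and 0.023). *Col1a2*, the brightest collagen, rose by 0.49 ± 0.14 (adjusted p = 0.046). Further probe sets rose with calls for *Col5a1* (0.72, adjusted p = 0.0061) and *Col11a1* (1.21 and 0.56, adjusted p = 0.0071 and 0.018). That of *Col1a2* was not called (0.39, adjusted p = 0.24). On the probe sets used, each of the 4 calls ended without at least 1 single array. *Col11a1* was lost without F6 (0.88) or F26 (0.77), *Col5a1* without F6, F7, F26 or F30 (0.61 to 0.80), *Col8a2* without F6, F7 or F25 (0.72 to 0.86), and *Col1a2* without F6, F7, any IgG or dexamethasone array or naïve 2 or 4 (0.38 to 0.53). The collagen list had 2 calls without F6, 3 without F7 or F26 and 5 without F27 or F30. Anti-*Vegf* F6 was the lowest array of its group in 15 of the 23 called matrix genes, against 276 of all 658 called rises.

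In the basement membrane, *Col7a1*, the anchoring fibril of the epithelium, had 9.66, 9.53, 9.64 and 9.44 against 8.82, 8.80, 8.62 and 8.82. *Col4a1*, the ubiquitous network collagen, had 9.33, 9.34, 9.46 and 9.37 against 7.90, 8.59, 8.02 and 8.24. Its partner *Col4a2* rose by 0.66 ± 0.15, *Col4a5* by 0.88 ± 0.23, and the laminin chains *Lamb2* and *Lamb3* by 0.67 ± 0.14 and 0.63 ± 0.17 (adjusted p = 0.014, 0.034, 0.012 and 0.033). *Col4a5* was lost without F1x, F6, F7, F25, F26 or F27 (0.79 to 0.89) and *Lamb3* without F1x, F2, F6, F26, F27 or F30 (0.47 to 0.67). *Col17a1*, the hemidesmosome collagen, is the brightest member and differed by 0.09 ± 0.10 (adjusted p = 0.69). Without F26 and F27 the collagen list had 2 calls, the basement membrane list 3 and the proteoglycan list 3.

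*Mamdc2*, which encodes a matrix protein with MAM domains, was the strongest matrix rise, at 8.62, 8.63, 8.03 and 8.21 against 7.52, 6.44, 5.31 and 5.65. The anti-*Vegf* arrays of *Mamdc2* were further apart than its dexamethasone arrays, and its naïve arrays lay higher still at 8.96 to 10.07. *Lox*, lysyl oxidase, which crosslinks collagen, had 12.28, 12.77, 12.64 and 12.04 against 11.25, 11.45, 11.18 and 11.44. *Thbs2*, a thrombospondin that restrains vessel growth, rose by 0.80 ± 0.16, *Bgn*, biglycan, by 0.54 ± 0.11 and *Sparc*, which binds collagen, by 0.40 ± 0.08 (adjusted p = 0.0071, 0.011 and 0.011), and *Sned1* by 0.74 ± 0.18 (adjusted p = 0.024), a call lost without F1x, F6, F7, F25 or F27 (0.63 to 0.73). *Dcn*, decorin and the brightest member, differed by 0.20 ± 0.13 (adjusted p = 0.40). The keratocyte markers as a list had 0 calls in 9 genes, although 1 or 2 were called without F1x, F27, IgG F17, F19 or F22.

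Among 30 matrix proteases and inhibitors 2 rose and 3 fell. *Adamts1* and *Adamts5*, which cut proteoglycans, rose by 1.01 ± 0.28 and 0.96 ± 0.23, and *Mmp12*, macrophage elastase, and *Adam10*, a sheddase, fell by 0.93 ± 0.25 and 0.40 ± 0.10 (adjusted p = 0.038, 0.021, 0.035 and 0.021). A second probe set of *Adam10* fell by more, at −1.05 (adjusted p = 0.012), and that of *Adamts5* was not called at 0.81 (adjusted p = 0.079). On the probe sets used, each of the 4 calls ended without at least 1 single array. *Adamts1* was lost without F1x, F6, F7, F25, F26 or F27 (0.86 to 1.07), *Adamts5* without F1x, F6, F7, F26 or F27 (0.76 to 0.93), *Mmp12* without F1x, F6, F7, F25, F26 or F27 (−0.90 to −0.81) and *Adam10* without F2, F26 or F30 (−0.37 to −0.33), which left 1 call of the 5 without F1x, F6 or F7 and 2 without F26 or F27. *Mmp9*, a gelatinase of neutrophils and epithelium, did not overlap at 7.23, 7.30, 8.00 and 8.28 against 6.92, 6.28, 5.95 and 7.04, yet was not called at 1.16 ± 0.40 (adjusted p = 0.094). The bright *Ctsb* differed by −0.09 ± 0.08 (adjusted p = 0.56). Of 18 integrins *Itgb1*, the common beta chain, rose by 0.32 ± 0.08 and *Itgbl1* by 0.91 ± 0.24 (adjusted p = 0.027 and 0.032), the first lost without F1x, F2 or F27 (0.26 to 0.32) and the second without F6, F7, F25 or F26 (0.71 to 0.82), and 1 call was left without any anti-*Vegf* array, F26 or F27. *Itga6* differed by 0.12 ± 0.08 (adjusted p = 0.43).

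Called growth factor genes were mostly higher under dexamethasone. *Ccn2*, which encodes connective tissue growth factor, had 11.52, 11.13, 11.23 and 10.45 under dexamethasone and 9.08, 9.06, 9.16 and 9.41 under anti-*Vegf*, with IgG arrays at 9.64 to 11.14. Of 34 TGF-β, BMP and CCN genes 4 rose and 1 fell. *Bmp6* rose by 0.74 ± 0.14, *Tgfb3* by 0.65 ± 0.16 and *Fstl3*, a follistatin like inhibitor, by 0.61 ± 0.15, and *Id2*, a BMP target, fell by 0.57 ± 0.16 (adjusted p = 0.0058, 0.021, 0.027 and 0.049). The other probe sets of *Bmp6* were not called, at −0.007, −0.07 and 0.43 (adjusted p = 0.97, 0.71 and 0.21). The call of *Bmp6* was lost with the mean of probe sets. *Tgfb3* was lost without F2, F6, F7, F25 or F30 (0.58 to 0.63), *Fstl3* without F1x, F6, F26, F27 or F30 (0.52 to 0.60) and *Id2* without each array other than F1x and F25 (−0.64 to −0.38), and 2 calls were left without F6 or F30 and 3 without F7, F26 or F27. *Tgfb2* was read from a probe set that was not called, at 0.37 ± 0.14 (adjusted p = 0.13), while its second probe set rose by 1.03 (adjusted p = 0.0023). *Id1*, the brightest, differed by −0.16 ± 0.14 (adjusted p = 0.54).

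The *Vegf* genes themselves gave little. *Vegfa* had 8.88, 10.27, 9.88 and 10.25 under dexamethasone and 9.35, 9.71, 9.58 and 9.45 under anti-*Vegf*, where F25 was below and the other dexamethasone arrays above every anti-*Vegf* array, and it differed by 0.30 ± 0.22 (adjusted p = 0.47). *Vegfc*, the lymphatic growth factor, rose by 0.66 ± 0.16 (adjusted p = 0.020), a call lost without F6, F7, F25 or F27 (0.57 to 0.63). *Jag1*, a Notch ligand of sprouting vessels, rose by 0.52 ± 0.11 and *Cd36*, the receptor through which thrombospondin slows endothelial cells and a fatty acid carrier, by 0.86 ± 0.17 (adjusted p = 0.012 and 0.0073). Of 36 genes of vessel growth 6 rose and 1 fell, at a median of 0.05, with 4 calls without F6 and 0 without F26 and F27. None of 11 markers of vessel endothelium and 5 of lymphatic endothelium was called. A vessel marker was called without F1x or naïve 1, and a lymphatic marker without F6 or F25.

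Of 32 FGF, PDGF, IGF and HGF genes 6 rose and 0 fell, at a median of 0.20, with 3 calls without F6. *Fgfr1*, a receptor, had 9.70, 9.93, 9.88 and 9.89 against 9.03, 9.08, 8.84 and 8.96. *Igf2*, a growth factor of mesenchyme, had 10.15, 10.01, 9.55 and 9.75 against 9.05, 8.76, 8.46 and 8.99. *Pdgfa* rose by 0.51 ± 0.09, *Igfbp7* by 0.65 ± 0.16 and *Fgf18* by 0.56 ± 0.13 (adjusted p = 0.0043, 0.024 and 0.016), of which *Fgf18* was lost without F6 (0.49) and *Igfbp7* without F6, F7, F25, F26 or F27 (0.60 to 0.65). The bright *Igfbp2* differed by 0.19 ± 0.11 (adjusted p = 0.32). EGF ligands and receptors gave falls alone, 2 of 12, with 0 left without F26 and F27. *Ereg*, epiregulin, fell by 0.59 ± 0.13 and *Erbb3*, a receptor, by 0.52 ± 0.10 (adjusted p = 0.016 and 0.0062), whereas *Egfr* differed by −0.16 ± 0.22 (adjusted p = 0.73). Of 32 Wnt and semaphorin genes 5 rose and 0 fell. *Fzd4*, a Wnt receptor, had 6.77, 6.03, 6.84 and 6.18 against 5.58 to 5.74. *Sema3c* rose by 0.89 ± 0.19, *Frzb*, a secreted Wnt inhibitor, by 0.69 ± 0.14, *Tcf7* by 0.41 ± 0.11 and *Sema3e* by 0.41 ± 0.12 (adjusted p = 0.013, 0.0078, 0.034 and 0.048). *Tcf7* was lost without F2, F6, F7, F25, F26 or F27 (0.30 to 0.43), *Sema3e* without each array other than IgG F19 and dexamethasone F27 (0.28 to 0.46), and 3 calls were left without F2, F6, F7, F25 or F26. *Wnt4* differed by 0.06 ± 0.11 (adjusted p = 0.82).

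PI3K-Akt signalling is a pathway the study singled out for dexamethasone on these arrays, as is chemokine signalling, so their counts are no independent evidence. In the PI3K-Akt list 0 of 27 genes rose and 3 fell, at a median of −0.03. *Pik3r3*, a regulatory subunit, had 7.40, 7.22, 7.49 and 7.42 against 8.37, 8.23, 8.23 and 8.21, a fall of 0.88 ± 0.10 (adjusted p = 0.00029). *Rps6kb1*, the S6 kinase, fell by 0.50 ± 0.07 and *Ccnd2*, a cyclin, by 0.54 ± 0.15 (adjusted p = 0.00097 and 0.037), the latter lost without F1x, F2, F6, F26, F27 or F30 (−0.55 to −0.45). A second probe set of *Rps6kb1*, nearly as bright, differed by 0.06 (adjusted p = 0.83), and the call of *Rps6kb1* was lost with the mean of probe sets. The brighter cyclin *Ccnd1* differed by 0.11 ± 0.13 (adjusted p = 0.69). Of its other probe sets, 1 was called higher at 0.35 (adjusted p = 0.037) and 1 was not called at −0.06 (adjusted p = 0.84). In the cell cycle list 1 of 29 genes rose, a share of 3.4% against 7.13% of all genes. It was *Cdc25b*, by 0.46 ± 0.10 (adjusted p = 0.014), and *Pcna* differed by 0.18 ± 0.08 (adjusted p = 0.21).

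Among AP-1 and immediate early genes F25 stood apart. *Fos* had 10.91, 13.12, 12.74 and 12.29 against 12.72, 11.06, 10.80 and 11.36, which is 0.78 ± 0.58 (adjusted p = 0.47). Of 27 members 3 rose and 1 fell, and without F25 10 were called. *Nr4a1*, an orphan receptor, rose by 1.13 ± 0.29 and *Zfp36*, which degrades cytokine messages, by 0.84 ± 0.21 (adjusted p = 0.031 and 0.024), and *Dusp5*, a phosphatase of ERK, fell by 0.72 ± 0.12 (adjusted p = 0.0028). *Nr4a1* was lost without F2, F6, F7, F26 or F27 (0.85 to 1.15) and *Zfp36* without these or F30 (0.73 to 0.82), leaving 1 call without F6, F7, F26 or F27 and 2 without F2. Of 17 clock genes *Nfil3* rose and 0 fell, a share of 5.9%, near the 7.13% called of all genes. *Nfil3* rose by 0.75 ± 0.21 (adjusted p = 0.042), lost without any anti-*Vegf* array, without F26, F27 or F30 or without IgG F23 (0.61 to 0.82), and the bright *Hlf* differed by −0.27 ± 0.24 (adjusted p = 0.56).

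Lipid mediators held a pair of opposed genes. *Akr1c3*, a reductase of prostaglandins and steroids, had 7.91, 6.76, 6.52 and 7.65 against 9.16, 9.25, 9.41 and 9.58. *Ptgis*, prostacyclin synthase, had 9.97, 10.29, 10.23 and 10.33 against 9.31, 9.15, 8.95 and 9.11, a rise of 1.08 ± 0.14 (adjusted p = 0.00056). *Alox5ap*, which feeds the leukotriene pathway, rose by 0.64 ± 0.18 (adjusted p = 0.045), lost without any anti-*Vegf* array, without F26, F27 or F30 or without IgG F22 or naïve 3 (0.55 to 0.67). In all 2 of 26 rose and 1 fell. Of 35 fatty acid and cholesterol genes 5 rose and 0 fell, at a median of 0.15. *Enpp2*, autotaxin, which makes lysophosphatidic acid, had 9.37, 8.79, 8.95 and 8.25 against 8.10, 7.98, 6.98 and 7.39. *Apoe*, the brightest, rose by 0.56 ± 0.11, the cholesterol exporter *Abca1* by 0.60 ± 0.16 and the desaturase *Fads1* by 0.55 ± 0.13 (adjusted p = 0.0073, 0.032 and 0.019). *Enpp2* was lost without F6, F7, F25, F26 or F27 (1.02 to 1.24), *Abca1* without F1x, F2, F7, F26 or F27 (0.51 to 0.61) and *Fads1* without F1x or F27 (0.50 and 0.46), which left 2 or 3 calls without F1x, F7, F26 or F27.

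Of 24 glycolysis genes *Eno2* alone was called, a share of 4.2% against 7.13% of all genes. *Eno2* rose by 0.57 ± 0.14 (adjusted p = 0.022), lost without F6, F7, F26 or F27 (0.47 to 0.57). The bright *Ldha* did not overlap but was not called at 0.28 ± 0.10 (adjusted p = 0.100). Of 27 transport genes 3 rose and 2 fell. *Atp1b1*, a subunit of the sodium pump of corneal endothelium and epithelium, rose by 0.90 ± 0.20, the water channel *Aqp5* by 0.31 ± 0.07 and the sodium channel subunit *Scnn1b*, a steroid responsive gene, by 0.53 ± 0.15 (adjusted p = 0.013, 0.016 and 0.044). *Kcnk1* and *Car12* fell by 0.55 ± 0.12 and 0.34 ± 0.09 (adjusted p = 0.011 and 0.039), and *Aqp3* differed by 0.01 ± 0.08 (adjusted p = 0.98). *Aqp5* was lost without F6 (0.28), *Car12* without F1x, F2, F6, F25, F26 or F27 (−0.34 to −0.29) and *Scnn1b* without any array other than F25, naïve 2 and naïve 3 (0.44 to 0.57), leaving 2 calls without F6 and 3 without F2 or F26.

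The remaining genes in the study's lists of the largest differences between these treatments were read in the same way. *Mpzl1*, a cell surface glycoprotein, had 7.74, 7.67, 7.73 and 8.11 against 7.23, 6.91, 6.99 and 6.94. *Trim54*, a ring finger protein, fell by 0.88 ± 0.15 (adjusted p = 0.0038) at signals near the low end of the array. *Cast*, calpastatin, *Prkx*, a kinase, and *Nox1*, an oxidase, were not called, with differences of −0.13 ± 0.09, −0.15 ± 0.08 and −0.46 ± 0.16 (adjusted p = 0.42, 0.33 and 0.11), although other probe sets of *Cast* and *Prkx* were lower by −1.13 and −0.68 (adjusted p = 0.00053 and 0.0075). Of 7 Schwann cell and nerve markers 1 rose and 1 fell, both named after their values were seen. *Pmp22*, a myelin protein, rose by 0.64 ± 0.13 (adjusted p = 0.011), and *Gap43*, a growth cone protein, fell by 0.75 ± 0.12 (adjusted p = 0.0027), while a dim second probe set of *Gap43* differed by 0.15 (adjusted p = 0.35).

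Lens transcripts gave the largest differences of the comparison. Crystallins are the soluble proteins that fill lens fibres, and the lens was no part of the harvested tissue by its description. Of 21 lens proteins 10 rose and 0 fell, at a median of 1.11. *Cryba1* had 9.68, 11.74, 8.44 and 7.73 under dexamethasone and 4.77, 4.21, 4.17 and 5.88 under anti-*Vegf*, and *Crybb2* had 9.01, 11.15, 7.87 and 7.95 against 5.63, 4.58, 4.92 and 5.98. *Cryaa* and *Crygs* were at 9.26, 11.31, 8.13 and 8.19 and at 8.49, 10.37, 7.49 and 7.50 under dexamethasone. F26 was highest for each, and F25 second. On anti-*Vegf* F7 and naïve 4 these genes were above the other arrays of their groups, with *Cryba1* at 5.88 on F7 against 4.17 to 4.77. *Cryab*, which stressed cells of many tissues also make, had 9.45, 10.89, 9.13 and 9.07 against 7.81 to 8.13, and its naïve level was also high. *Crygb* and *Grifin*, a galectin like protein of the lens, rose by 2.29 ± 0.55 and 2.04 ± 0.48 (adjusted p = 0.021 and 0.019), lost without F6 (2.23 and 2.00) and *Crygb* without F2 (2.17), and the list had 6 calls without F2 or F6 and 12 without F26 and F27. The membrane proteins of mature fibres, *Mip* and *Lim2*, were raised on F26 but not called, at 0.68 ± 0.25 and 0.55 ± 0.29.

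Photoreceptor transcripts, a list chosen after its values were seen, made up a second group of ocular genes from outside the cornea. They follow another order of arrays than the lens genes. *Gngt1*, a subunit of rod transducin, had 5.54, 7.44, 7.60 and 6.08 under dexamethasone and 4.84, 4.73, 3.96 and 4.61 under anti-*Vegf*. *Pdc*, phosducin, had 5.47, 6.82, 7.40 and 6.21 against 4.83, 5.03, 3.95 and 4.18. F26 and F27 were highest and F25 lowest of the dexamethasone arrays. IgG F19 reached 6.89 for *Gngt1* and 6.72 for *Pdc*. *Prph2* and *Rom1*, structural proteins of the rod disc, *Sag*, arrestin, *Gnat1*, transducin alpha, *Pde6b*, the rod phosphodiesterase, and *Cnga1*, the rod channel, rose by 1.22 to 1.90 with the same ranking of F25 last. *Sag* was lost without F6, F7, F26 or F27 (1.42 to 1.66) and *Gnat1* without F6 or F27 (1.43 and 1.29). Of 24 measured genes 13 rose and 0 fell, with 8 calls without F2 or F26, 7 without F6, 6 without F27 and 0 without F26 and F27. The mean of the list was 5.38 to 6.08 on the dexamethasone arrays, 5.03 to 5.16 on the anti-*Vegf* arrays, 5.22 to 5.93 on the IgG arrays and 4.99 to 5.18 on the naïve arrays. The part of lens and retinal RNA in other results was not tested.

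**Figure D5:**
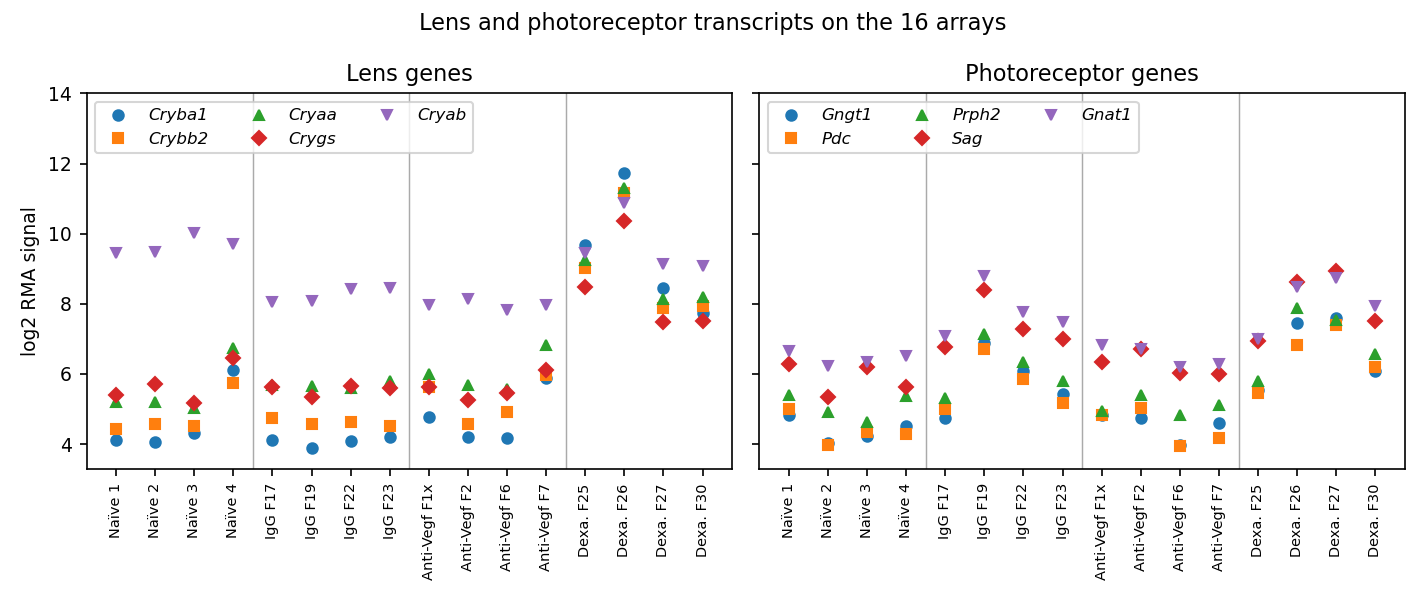
Log2 RMA signal of 5 lens genes (left) and 5 photoreceptor genes (right) on each of the 16 arrays, which are separated by group with vertical lines. Lens genes are raised on all 4 dexamethasone arrays with F26 highest, *Cryba1* reaching 11.74, while photoreceptor genes are highest on dexamethasone F26 and F27 and on IgG F19.

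Markers of the corneal endothelium, the cell layer that faces the anterior chamber, were also mixed. Of 8 measured markers 3 were called higher, namely *Cdh2*, *Col8a2* and *Tfap2b*, and 0 were called lower. At an unadjusted limma p under 0.05, 5 were higher and 2 lower. The lowest difference was −1.05, and 1 lower marker had arrays that did not overlap. The mean of the list was 9.77 to 9.94 on the dexamethasone arrays, within the range of the anti-*Vegf* arrays, the lowest of which was 9.17. *Slc4a11*, a borate transporter that defines these cells, differed by 0.40 ± 0.18 (adjusted p = 0.22). No marker was called without F6, without F7 or without F26 and F27, and 1 without F25, F26 or F27. The amount of endothelium in the samples was not measured, and its part in the rise of basement membrane genes was not tested.

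Where the IgG level lay was read for every called gene. Its mean was nearer to the dexamethasone mean than to the anti-*Vegf* mean for 13.2% of the called rises and 8.7% of the called falls, against 32.6% of all genes. The IgG arrays also had the poly-A level of the anti-*Vegf* arrays (7.08 and 6.88, against 5.17 under dexamethasone), and the part of this in the shares was not tested. The naïve mean lay between the treatments for 46.7% of the called rises and 47.9% of the called falls, against 22.4% of all genes. Called genes were selected for a gap between the treatment means, so another mean falls between them more easily than for all genes. The contrast with all genes therefore shows no return to naïve levels. These shares describe positions of means on arrays that entered the same fit and carry no test. A second reading came from other probe sets. The called genes had 553 further probe sets, of which 69.8% had the sign of the main probe set, 108 were called in the same direction and 8 in the opposite direction.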

How the data were processed

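Total RNA of corneal tissue was labelled with a 3′ IVT kit and hybridised to Affymetrix GeneChip rat arrays. The authors made the deposited log2 values with RMA in Affymetrix Expression Console, which corrects background, equalises the distributions of the arrays by quantiles and summarises probe sets, so a change of all genes at once would be removed. Here the values were used as deposited. Samples were grouped by the labels, and 16 arrays were fitted with limma 3.58.1 in R 4.3.3, with a mean for each of 4 groups, 12 residual degrees of freedom and moderated variances. The contrast was dexamethasone minus anti-*Vegf*, and the limma p-values were adjusted after Benjamini-Hochberg over 31042 probe sets. A gene with several probe sets was read from the brightest. Named genes were the 15 largest rises and falls with arrays that did not overlap. Up to 5 called genes and the brightest member of each process list were named as well. The genes in the study's lists of the largest differences for this comparison and some members of the glucocorticoid and complement lists were added. Others were chosen after their values were seen. The members and lists were chosen with earlier results of these data known. On simulated data of 14217 genes the procedure found 73.1% of genes changed 1.5-fold and 95.5% of those changed 2-fold in this comparison. Exact permutation tests were two-sided. The alternatives were an ordinary t test of the contrast without moderated variances, trend and robust moderation, array weights and the 8 compared arrays alone. Others were cyclic loess and centring on the 6 of 10 listed reference genes that had a probe set of 1 symbol. Removal of dim probe sets, the mean of the probe sets of a gene, other thresholds and leaving out each array were also used. Leaving out F26 and F27 together was added after the values were seen.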

Additional observations from a re-analysis of the deposited data

Results flagged for a closer look

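In 22 of 450 groups of 4 arrays looked at, the highest or lowest array lay far from the others by Dixon's criterion, and chance sets apart about 1 in 20 groups. Anti-*Vegf* F6 stood apart for the hybridization controls (10.98, others 10.81 to 10.83), *Tnfsf12* (7.65, others 8.05 to 8.14) and *Col7a1* (8.62, others 8.80 to 8.82). Anti-*Vegf* F2 stood apart for *C1qa* (7.30), *Sod2* (11.13), *Mmp12* (6.79) and *Slc4a11* (10.24), the last of these above and the others below the rest of the group. Anti-*Vegf* F1x was low for *Cd59b* (12.96) and high for *Pik3r3* (8.37), and anti-*Vegf* F7 was high for *Irf1* (11.63), *Klk8* (10.13) and *Grifin* (5.55). Among the dexamethasone arrays, F25 was high for *Aldh1a1* (12.51) and *Col8a2* (11.73), and F26 for *Lyz2* (12.77) and *Dmkn* (10.10). F27 was low for *Sbsn* (10.90), *Serpinb2* (7.18) and *Klk8* (6.78). F30 was low for *Pou3f3* (9.33) and high for *Mpzl1* (8.11), and for *Ctss* (9.10) it stood apart only because the other arrays were all at 9.09.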

How the results depend on the processing

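The count of 1013 called genes moved by more than 1.5 times under some alternatives. It was 544 with the 8 compared arrays alone, 1791 after centring on reference genes, 264 without both F26 and F27, 389 with a fold change of at least 1.5 as well, 265 at an adjusted p under 0.01 and 3234 at an unadjusted p under 0.05. Leaving out single arrays gave 572 to 1015. The ordinary t test, trend and robust moderation and array weights gave 831, 978 and 1070. Cyclic loess, removal of dim probe sets and the mean of probe sets gave 995, 1044 and 876. Of 168 called named genes, 104 kept their call without each single array and 64 lost it without at least 1. Of the 168, 102 lost it without F26 and F27 and 46 with the 8 compared arrays alone. Under the ordinary t test 44 lost it, and with the mean of probe sets 21. *Hp*, *Aldh1a1*, *Lamb2*, *Sparc* and *Ereg* kept their call without each single array and lost it with the 8 compared arrays alone.

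The differences that changed sign belong to genes that were not called. Without single arrays *Krt12* ranged from −0.01 to 0.02, *Nr3c1* from −0.10 to 0.05, *Cd59b* from −0.15 to 0.06, *Ifngr1* from −0.12 to 0.10, *Dsp* from −0.01 to 0.06, *Wnt4* from −0.01 to 0.14, *Ccnd1* from −0.00 to 0.19, *Aqp3* from −0.03 to 0.09 and *Ptprc* from −0.55 to 0.03. Centring on reference genes gave 0.08 for *Nr3c1*, 0.00 for *Hsp90ab1*, 0.07 for *Anxa1*, 0.05 for *Cd59b*, 0.08 for *Ifngr1* and 0.01 for *Ctsb*. Cyclic loess gave 0.04 for *Anxa1*, 0.00 for *Cd59b* and 0.01 for *Ifngr1*, array weights 0.01 for *Nr3c1* and −0.01 for *Aqp3*, and the mean of probe sets 0.11 for *Hsp90ab1* and −0.23 for *Itga6*. Without F26 and F27 *Krt12* was −0.01 and *Sfn* 0.03. The cause of these changes was not tested. No paired analysis was possible because the groups compared share no replicate numbers.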
